A study of Homo sapiens with 2 samples.

Results

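The mitochondrial ribosomal protein genes described here are the 78 genes of the deposited expression table whose symbol is MRPL or MRPS followed by a number and at most one letter from A to C, out of 57351 gene symbols in all. Pseudogenes were left out. RNA-seq was performed on total RNA of 22Rv1, a castration-resistant human prostate cancer cell line. The cells carried either shEIF3F, a hairpin directed at the transcript of an eIF3 translation initiation factor subunit, EIF3F, or shCON, a shRNA vector control. Each group had 1 library, so no difference below has a replicate check, and no error or p-value was computed. A single hairpin was used, so loss of EIF3F and any other target of that hairpin cannot be told apart.

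Mitochondria hold their own ribosome, the mitoribosome, which translates the few proteins encoded in mitochondrial DNA, all of them core subunits of the respiratory chain and ATP synthase. Its ribosomal RNAs come from mitochondrial DNA, whereas every protein of its large and small subunit is encoded in the nucleus, made on cytosolic ribosomes and imported. Many of these proteins have counterparts in bacterial ribosomes, and the others are found only in mitoribosomes. Symbols do not always follow the subunit: MRPS30 and MRPS18A proteins sit in the large subunit, and MRPS36 is now known as a component of the 2-oxoglutarate dehydrogenase complex. The 78 genes were therefore divided into 51 of the large subunit, 26 of the small subunit and MRPS36.

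Values are TPM, a unit in which the authors scaled each level by transcript length and library total, so that levels can be compared between genes. The listed TPM summed to 994055 in shEIF3F and 992454 in shCON, and depth is unknown. EIF3F stood at 17.0 TPM in shEIF3F and 991 TPM in shCON, a log2 ratio of -5.78. All 8 prostate luminal markers checked had a mean of 1 TPM or more, and they differed in direction, from KLK2 at 2.50 TPM in shEIF3F and 32.6 TPM in shCON to EPCAM at 60.5 and 17.5 TPM. The 6 stromal markers summed to 27.2 TPM in shEIF3F and 40.9 TPM in shCON, the 5 immune markers to 5.89 and 1.62 TPM, of which CD68 alone made up 5.34 and 1.20 TPM, and 3 of the 4 endothelial markers were listed at 0 in both. The part of other cells in any value below was not tested, and in bulk RNA a change in the share of a cell type and a change in RNA per cell cannot be told apart. Of the TPM listed, 60.4% in shEIF3F and 46.2% in shCON fell on the 100 most abundant genes.

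As deposited, transcripts of mitochondrial ribosomal proteins were mostly lower in shEIF3F, a minority of them by a large factor, while a smaller group was higher. Every one of the 78 passed the filter for genes tested, a library mean of at least 1 TPM. The log2 ratio is log2((shEIF3F TPM + 1) / (shCON TPM + 1)), and a value of -1 or less is called at least 2-fold lower, 1 or more at least 2-fold higher. Of the 78 genes, 21 (26.9%) were at least 2-fold lower, against 25.5% of the 13309 genes tested in the whole table. None was at least 2-fold higher, against 8.45% of all genes tested. The share of lower genes was thus close to that of the table as a whole. Below 0 were 60 of the 78 (76.9%), against 65.3% of all genes. The median log2 ratio was -0.47, with quartiles of -1.02 and -0.06, against a median of -0.36 for all genes tested.

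These counts moved with the scaling. Centring on the overall median adds 0.36 to each ratio, and then 9 genes were at least 2-fold lower and 3 at least 2-fold higher, against 16.0% and 14.7% of all genes. With the libraries rescaled to equal TPM outside the 100 most abundant genes, 8 were lower and 5 higher, against 15.9% and 15.1%. With the trend of the ratios over transcript GC content removed, 7 were lower and 1 higher, against 13.9% and 13.3%. The medians over the 78 genes were -0.11, -0.04 and -0.14, all still below 0. The 7 genes MRPL14, MRPL17, MRPL23, MRPL24, MRPL51, MRPS12 and MRPS34 were at least 2-fold lower as deposited, in each of these forms and with a length trend removed.

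**Figure D1:**
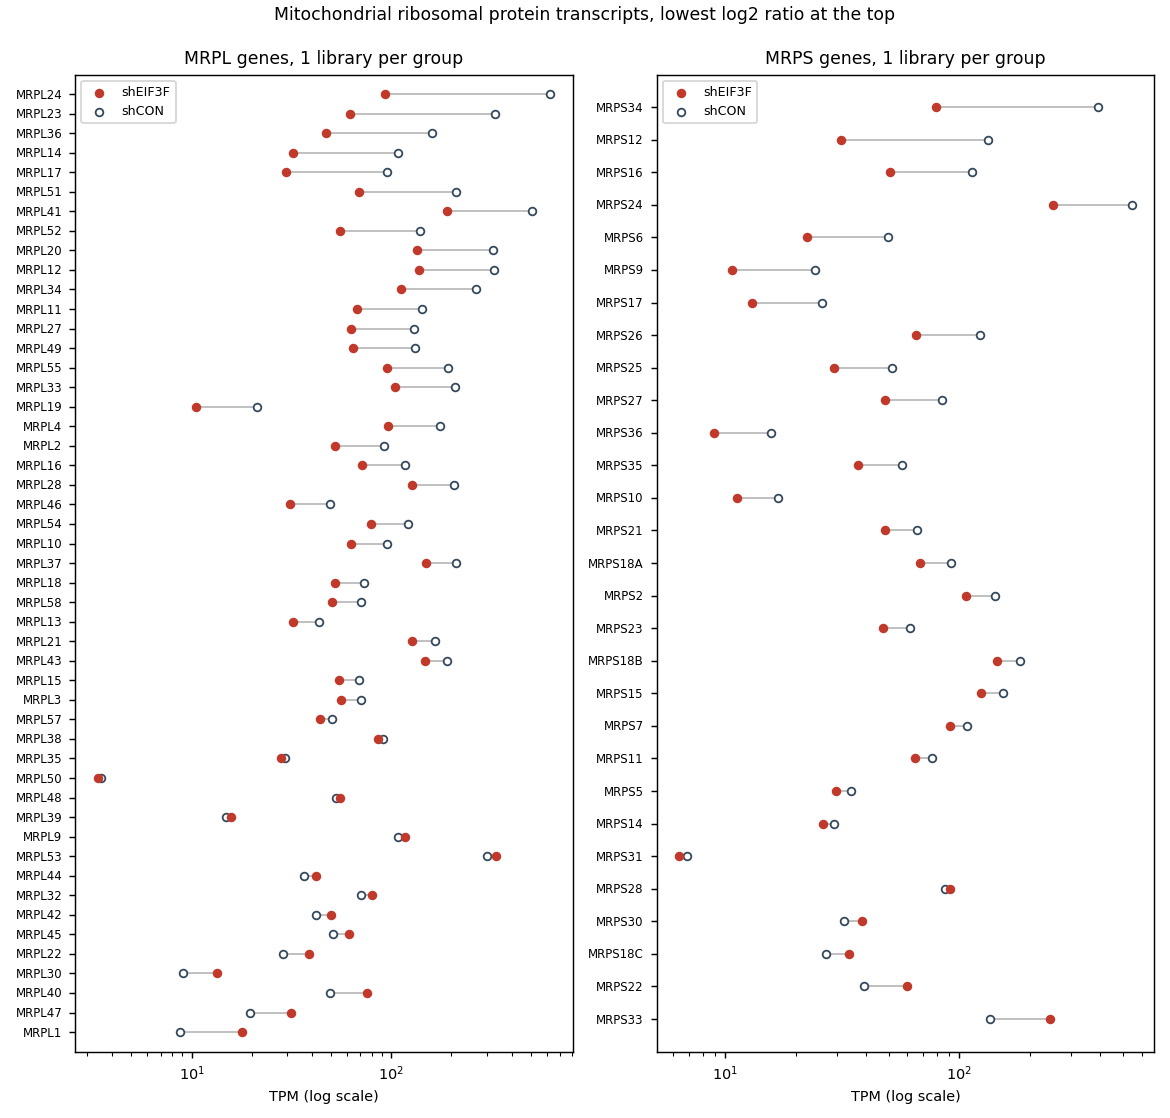
TPM (log axis) of the 78 genes in the shEIF3F library (filled red) and the shCON library (open), MRPL symbols on the left and MRPS symbols on the right, ordered by log2 ratio with the lowest at the top. Each line joins the single values of a gene; 21 genes have a log2 ratio of -1 or less as deposited and 18 lie above 0.

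MRPL24 had the lowest log2 ratio. It encodes uL24m, a protein at the rim of the tunnel through which the new peptide leaves the large subunit. It stood at 92.9 TPM in shEIF3F and 624 TPM in shCON, 14.9% of the control level (log2 ratio -2.73). This was the most abundant of the 78 transcripts in shCON and ranked 19 in shEIF3F. Its difference alone made up 13.3% of the 4001 TPM by which the summed level of the 78 genes was lower. MRPL23, which encodes the neighbouring rim protein uL23m, followed with 62.0 TPM in shEIF3F and 330.1 TPM in shCON (-2.39). MRPL17 encodes bL17m, also at the rim, and stood at 29.9 TPM in shEIF3F and 95.5 TPM in shCON (-1.64).

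The other proteins placed at that rim did not share the direction. This site, the stalk and the central protuberance were chosen after the values were seen. The genes listed for each may not be all that belong there. MRPL22, for uL22m, stood at 38.8 TPM in shEIF3F and 28.9 TPM in shCON (log2 ratio 0.42). MRPL47, for uL29m, stood at 31.4 TPM in shEIF3F and 19.6 TPM in shCON (0.65). MRPL45, whose product tethers the mitoribosome to the inner membrane, stood at 61.8 TPM in shEIF3F and 51.0 TPM in shCON (0.27). As deposited, 3 of these 6 rim genes were thus at least 2-fold lower and the other 3 higher by less than 2-fold, a span from -2.73 to 0.65.

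In the small subunit MRPS34 and MRPS12 had the lowest ratios. MRPS34, for the mitochondria-specific protein mS34, stood at 79.6 TPM in shEIF3F and 391.8 TPM in shCON (log2 ratio -2.29). MRPS12 encodes uS12m of the decoding centre, whose bacterial counterpart is the protein in which streptomycin resistance arises. It stood at 31.1 TPM in shEIF3F and 132 TPM in shCON (-2.05). In percent of the control level MRPS34 stood at 20.3% and MRPS12 at 23.6%.

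In the order of ratios MRPL24, MRPL23, MRPS34 and MRPS12 were followed by MRPL36 and MRPL14, then MRPL17, given above, and MRPL51. MRPL36, for the small protein bL36m, stood at 47.1 TPM in shEIF3F and 160.0 TPM in shCON (log2 ratio -1.74). Its ratio was -0.59 once the GC trend was removed. MRPL14 encodes uL14m, the docking site of the assembly factor MALSU1, and stood at 32.2 TPM in shEIF3F and 108 TPM in shCON (-1.71). MRPL51, for mL51, stood at 68.5 TPM in shEIF3F and 211 TPM in shCON (-1.61).

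MRPL41, for mL41, remained among the most abundant members, with 191 TPM in shEIF3F and 509 TPM in shCON (log2 ratio -1.41), but its ratio was -0.26 with the GC trend removed. It ranked 4 in shEIF3F and 3 in shCON. MRPS24, for uS3m, stood at 251 TPM in shEIF3F and 545 TPM in shCON (-1.11) and ranked 2 in both libraries. Of the 10 most abundant members in each library, 5 were shared. The 10 highest held 33.6% of the summed TPM of all 78 in shEIF3F and 40.1% in shCON.

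The stalk of the large subunit recruits translation factors. MRPL12, for the stalk protein bL12m, which is also known to bind the mitochondrial RNA polymerase, stood at 138 TPM in shEIF3F and 327 TPM in shCON (log2 ratio -1.24). MRPL11, for uL11m at the base of the stalk, stood at 67.1 TPM in shEIF3F and 143 TPM in shCON (-1.08). MRPL10, for uL10m, which carries bL12m, stood at 63.2 TPM in shEIF3F and 95.5 TPM in shCON (-0.59). These 3, the only genes listed for the stalk and its base, were lower, MRPL10 by less than 2-fold. Of the 6 genes listed for the central protuberance, which faces the small subunit, only MRPL27 was at least 2-fold lower. It encodes bL27m, which reaches towards the peptidyl transferase centre, and stood at 62.8 TPM in shEIF3F and 130 TPM in shCON (-1.04). The others ran from -0.65 for MRPL46 to 0.60 for MRPL40.

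The remaining genes at least 2-fold lower lay between -1.31 and -1.004. In the large subunit MRPL52, for mL52, stood at 55.6 TPM in shEIF3F and 139 TPM in shCON (log2 ratio -1.31). MRPL20, for bL20m, stood at 134 TPM in shEIF3F and 324 TPM in shCON (-1.27), and MRPL34, for bL34m, at 112 and 265 TPM (-1.23). These 3 differed little from each other in ratio although their levels did. In the small subunit MRPS16, for bS16m, stood at 50.5 TPM in shEIF3F and 113 TPM in shCON (-1.15). MRPS6, for bS6m, stood at 22.4 TPM in shEIF3F and 49.6 TPM in shCON (-1.11), and MRPS9, for uS9m, at 10.7 and 24.1 TPM (-1.11). MRPS9 was the least abundant of the 21 in both libraries. Several members lay close to the limit. Just past it, MRPL55, for bL31m, stood at 95.2 TPM in shEIF3F and 192 TPM in shCON (-1.004), and MRPL49, for mL49, at 64.6 and 132 TPM (-1.02). Just short of it, MRPL33, for bL33m, stood at 104 TPM in shEIF3F and 209 TPM in shCON (-0.999), and MRPL19, for bL19m, at 10.5 and 21.2 TPM (-0.95). In percent of the control level MRPL33 stood at 49.8%, MRPL19 at 49.3% and MRPS17 at 49.98%. These genes miss the limit only because 1 TPM is added to both values. Within 0.1 of -1 on the log2 scale, 4 genes lay on each side, so that the count of 21 rests in part on very small differences.

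At the other end 18 genes had ratios above 0. MRPL1, for uL1m of the mobile stalk through which used tRNAs leave, stood at 17.8 TPM in shEIF3F and 8.78 TPM in shCON. That is 203% of the control level, although its log2 ratio of 0.95 stays below 1 because 1 TPM is added to both values. MRPS33, for mS33, stood at 245 TPM in shEIF3F and 135 TPM in shCON (0.86) and ranked 3 in shEIF3F but 24 in shCON. MRPL40, for mL40 of the central protuberance, stood at 75.7 TPM in shEIF3F and 49.6 TPM in shCON (0.60). MRPL40 was the only member at least 2-fold higher with the GC trend removed (1.35).

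MRPS22, for mS22, stood at 59.8 TPM in shEIF3F and 39.1 TPM in shCON (log2 ratio 0.60). MRPL30, for uL30m, stood at 13.4 TPM in shEIF3F and 9.11 TPM in shCON (0.51). MRPL53, for mL53, was the most abundant member in shEIF3F, with 336 TPM there and 301 TPM in shCON (0.16). MRPL42, for mL42, stood at 50.1 TPM in shEIF3F and 41.8 TPM in shCON (0.26). Besides MRPL22, MRPL45, MRPL47 and MRPS18C, described with their sites or paralogues, the other genes above 0 were MRPS30 (0.26), MRPL32 (0.19), MRPL44 (0.19), MRPL9 (0.11), MRPL39 (0.07), MRPS28 (0.07) and MRPL48 (0.06). MRPL44 encodes a protein with an RNase III fold.

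The MRPS18 genes are paralogues whose products occupy different places. MRPS18C encodes the bacterial-type bS18m of the small subunit, MRPS18B the small subunit protein mS40, and MRPS18A the large subunit protein mL66. MRPS18C stood at 33.9 TPM in shEIF3F and 26.8 TPM in shCON (log2 ratio 0.33), MRPS18B at 144 and 182 TPM (-0.34), and MRPS18A at 68.0 and 92.4 TPM (-0.44). All 3 were within 2-fold, and MRPS18B was the most abundant in both libraries.

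The scatter among the members was wide against any difference between subunits. The 51 large subunit genes had a median log2 ratio of -0.48 (range -2.73 to 0.95) and the 26 small subunit genes -0.43 (range -2.29 to 0.86). At least 2-fold lower were 15 of the 51 (29.4%) and 6 of the 26 (23.1%), against 25.5% of all genes tested. Summed TPM was 3761 in shEIF3F and 6761 in shCON for the large subunit, and 1767 and 2761 for the small subunit. Large subunit transcripts with MRPL or MRPS symbols thus summed to 2.13 times those of the small subunit in shEIF3F and 2.45 times in shCON. Mitoribosomal proteins with other symbols are not in these counts and sums. The 5 of them summed to 233 TPM in shEIF3F and 647 TPM in shCON, and the 4 at least 2-fold lower belong to the small subunit. GADD45GIP1, of the large subunit, was level at 99.8 TPM in shEIF3F and 98.8 TPM in shCON. The shares of 29.4% and 23.1% and the quotients of 2.13 and 2.45 therefore hold for MRPL and MRPS symbols only. The difference between the quotients cannot be read as a shift in the balance of whole subunits. The balance of the subunits with these genes added was not computed. MRPS36 stood at 8.92 TPM in shEIF3F and 15.6 TPM in shCON (-0.75).

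Among the members, genes for proteins with a bacterial counterpart had a lower median than genes for mitochondria-specific proteins. The 48 genes of the first class had a median log2 ratio of -0.56, with 16 at least 2-fold lower (33.3%). The 29 of the second had a median of -0.36, with 5 lower (17.2%), and the share lower over all genes tested was 25.5%. The 5 mitoribosomal proteins with other symbols are mitochondria-specific by their protein names but were counted in neither class. Of these, 4 were at least 2-fold lower, so with them the share lower in the second class would be above 17.2%. MRPS18A and MRPS18B, as paralogues of the bacterial-type MRPS18C, were counted in the first class. In the large subunit the medians were -0.69 over 31 genes and -0.14 over 20 genes, but the second was above 0 after centring (0.22), rescaling (0.26), GC trend removal (0.09) and length trend removal (0.26). In the small subunit they went the other way, -0.41 over 17 genes and -0.61 over 9 genes, and the first was above 0 after rescaling (0.02). With the GC trend removed the medians of the 48 and the 29 genes were -0.29 and -0.0039. The median of the 29 was above 0 after rescaling (0.071) and with the length trend removed (0.02), while that of the 48 stayed below 0. No test of this difference is possible with 1 library per group.

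Summed over all 78 genes the level was 5537 TPM in shEIF3F and 9538 TPM in shCON, or 0.557% and 0.961% of the TPM listed. The shEIF3F sum was 58.0% of the control sum. These sums are as deposited and were not rescaled, although the 100 most abundant genes held 60.4% of the TPM in shEIF3F and 46.2% in shCON. The 21 genes at least 2-fold lower summed to 1699 TPM in shEIF3F and 4945 TPM in shCON, and the other 57 to 3838 and 4593 TPM. The levels were also spread less widely in shEIF3F. The highest level was 99.3 times the lowest in shEIF3F and 178 times in shCON, and the standard deviation of log2 TPM over the 78 genes was 1.23 in shEIF3F and 1.499 in shCON. Still, the order of the levels was largely shared (rho by Spearman 0.845 over the 78 genes, which are no replicates, against 0.804 over all genes tested).

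Ratios were lower in members of higher mean TPM, but this depended on which library gave the level. Among the 26 members with the lowest mean TPM, between 3.44 and 49.5, the median log2 ratio was -0.12 and 2 (7.69%) were at least 2-fold lower. Among the 26 in the middle, the median was -0.47 and 7 (26.9%) were lower. Among the 26 highest, between 99.7 and 398 TPM, the median was -0.93 and 12 (46.2%) were lower. Over all genes in the same 3 ranges of mean TPM the shares lower were 27.0%, 33.7% and 36.4%. Spearman's rho of the log2 ratio with mean TPM was -0.453 across the 78 genes and -0.118 across all genes. With shEIF3F TPM alone it was -0.117 across the 78 genes and 0.213 across all genes, and with shCON TPM alone -0.581 and -0.346. The level enters both quantities, and these correlations carry no test.

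Transcript GC content moved with both. Log2 ratios had a Spearman's rho of -0.498 with the GC content of the longest annotated transcript across the 78 genes, and -0.316 across the 13194 genes tested with an annotated transcript. Among the 26 members of lowest GC content (34.96% to 45.6%) the median log2 ratio was -0.05 with 2 at least 2-fold lower (7.69%), against -0.06 and 14.4% of all genes in that range. Among the 26 in the middle it was -0.47 with 6 lower (23.1%), against -0.28 and 20.2%. Among the 26 of highest GC content (53.0% to 71.9%) it was -0.96 with 13 lower, against 37.9% of all genes in that range. In the same range the median of all genes was -0.72. GC content was itself higher in the more abundant members (rho 0.745 with shCON TPM), so the trends over level and over GC content cannot be told apart here.

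**Figure D2:**
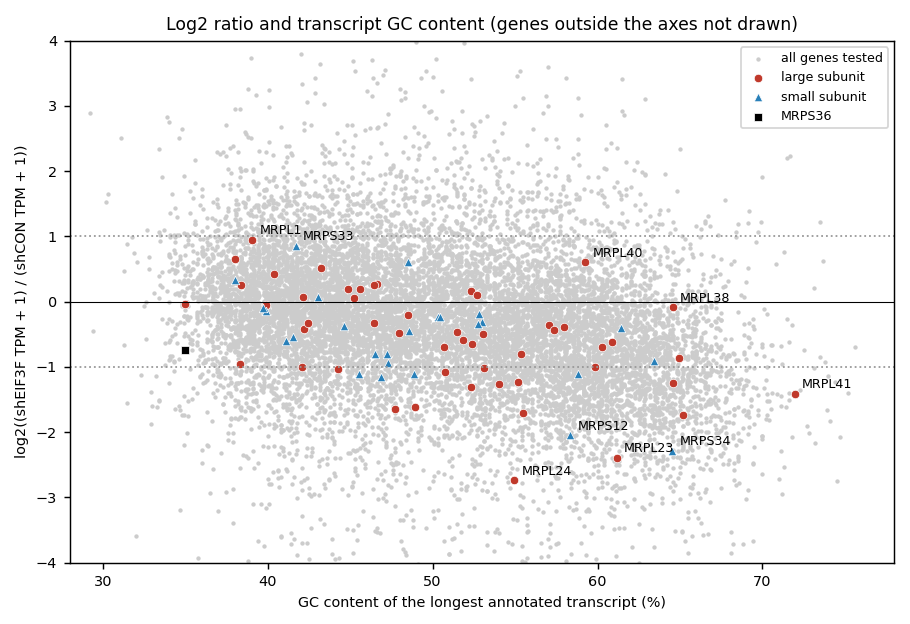
Log2 ratio of shEIF3F to shCON (y axis) against transcript GC content in percent (x axis) for the large subunit genes (circles), small subunit genes (triangles), MRPS36 (square) and all genes tested (grey); dotted lines mark the 2-fold limits. Ratios are lower at higher GC content among the 78 genes (rho -0.498) and among all genes (rho -0.316), while MRPL40 and MRPL38 lie near or above 0 at high GC content.

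Exceptions to the GC trend stood out at both ends. MRPL38, for mL38 of the central protuberance, stood at 85.7 TPM in shEIF3F and 90.9 TPM in shCON (log2 ratio -0.08) with a GC content of 64.6%. MRPS34 had nearly the same GC content, 64.5%, and a log2 ratio of -2.29. MRPL17 and MRPL51 were at least 2-fold lower at 47.7% and 48.9%.

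Promoter sequence was examined for 69 of the 78 genes, those with an entry in the RefSeq promoter table (GRCh38.p14), which gives 250 bases before and 50 after an annotated start. MRPL2, MRPL10, MRPL13, MRPL15, MRPL21, MRPL23, MRPL35, MRPS28 and MRPS36 had no entry. The submitters' processing notes name hg19 for the expression values, so these coordinates belong to the sequences only. The 5 stretches shown are those of MRPL24, the lowest member, of MRPS34 and MRPS22, which hold the most ETS matches and lie at opposite ends of the ratios, of MRPL52, with a pair of YY1 matches, and of MRPS33, a member of high ratio with an NRF1 match. They were chosen after the values were seen. MRPL52 and MRPS33 also have an ETS match each, past the printed stretch. Where a gene had several windows, the stretch comes from the window with the most matches. Capitals mark a match to one of the 4 motifs, each line runs 5′ to 3′ on the gene's strand, and position -1 is the base before the first transcribed one.
MRPL24 (chr1:156741089-156741188, minus strand, -100 to -1): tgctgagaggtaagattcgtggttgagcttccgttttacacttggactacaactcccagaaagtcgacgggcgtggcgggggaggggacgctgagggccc
MRPS34 (chr16:1773135-1773214, minus strand, -80 to -1): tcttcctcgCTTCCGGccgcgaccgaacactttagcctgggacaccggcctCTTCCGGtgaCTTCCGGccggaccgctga
MRPS22 (chr3:139343894-139343993, plus strand, -100 to -1): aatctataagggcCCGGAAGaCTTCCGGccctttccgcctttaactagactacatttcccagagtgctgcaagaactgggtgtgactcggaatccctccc
MRPL52 (chr14:22829777-22829881, plus strand, -110 to -6): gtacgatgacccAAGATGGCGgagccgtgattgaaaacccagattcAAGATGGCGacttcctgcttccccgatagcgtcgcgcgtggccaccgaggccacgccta
MRPS33 (chr7:141015023-141015122, minus strand, -170 to -71): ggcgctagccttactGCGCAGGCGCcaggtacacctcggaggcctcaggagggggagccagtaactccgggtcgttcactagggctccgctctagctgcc

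ETS and YY1 letters were found in a larger share of these promoters than of promoters in general. The motifs searched on both strands were CCGGAAG for ETS factors such as GABPA, AANATGGCG for YY1, GCGCA, any base and GCGC for NRF1 and CACGTG for the E-box that MYC binds, and no matches of different motifs overlapped in the members' windows. The 69 genes had 85 windows. ETS letters were in 33 of them (38.8%), against 10.3% of all 35116 windows, and YY1 letters in 18 (21.2%), against 3.19%. NRF1 letters were in 10 (11.8%), against 5.78%, and E-box letters in 9 (10.6%), against 7.26%. By gene the shares were 43.5% for ETS and 26.1% for YY1, against 23.3% and 8.43% of the 9310 genes tested that had an entry. By gene, NRF1 and the E-box were each in 9 of the 69 (13.0%), close to the shares over all genes with an entry. A match describes letters and shows neither a bound site nor a cause.

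Which motif set the medians furthest apart depended on the GC trend: as deposited it was NRF1, and with that trend removed the E-box. For the counts of lower genes given by motif, the share over all genes tested was 25.5%. Shares lower over all genes with or without a motif were not computed. The 30 genes with ETS letters had a median log2 ratio of -0.46, with 7 at least 2-fold lower, and the 39 without -0.61, with 13 lower. They ran from -2.29 for MRPS34, with 3 matches upstream of its start, to 0.86 for MRPS33. MRPS22 also has 3 ETS matches, 1 of them past the printed stretch, and a ratio of 0.60. Thus the same letters lay in the promoter windows of genes with opposite directions. The match of MRPS33 lies at positions 0 to 6, from its first transcribed base on. The 18 genes with YY1 letters had a median of -0.24, with 4 at least 2-fold lower, and the 51 without -0.62, with 16 lower. Over all genes the YY1 medians were -0.34 with and -0.38 without. With the GC trend removed the members' medians were -0.12 with and -0.13 without ETS letters, and -0.04 with and -0.18 without YY1 letters.

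The 9 genes with NRF1 letters had a median of -1.11, with 5 at least 2-fold lower. The 60 without had a median of -0.47, with 15 lower, against 25.5% lower of all genes tested. Those with NRF1 letters included MRPL36, MRPL14 and MRPL17 but also MRPS33. With the GC trend removed the NRF1 medians were -0.59 with and -0.12 without. Over all genes they were -0.48 and -0.36 as deposited. The 9 genes with E-box letters had a median of -0.41, with 3 lower, and the 60 without -0.51, with 17 lower. With the GC trend removed the E-box medians were 0.35 with and -0.17 without, so that the median with these letters turned above 0. The order of the E-box medians as deposited was reversed over all genes, -0.47 with and -0.36 without. None of the 4 motifs was found for 18 of the 69 genes, MRPL24 among them, and their median was -0.83. The median of all genes tested was -0.36, and that of all genes with none of the motifs was not computed.

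**Figure D3:**
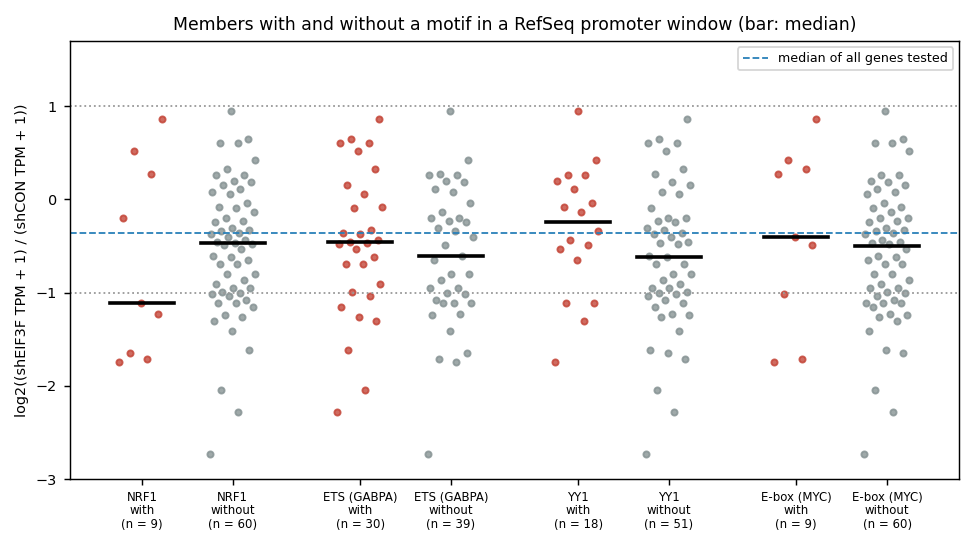
Log2 ratio of shEIF3F to shCON (y axis) of the 69 genes with a RefSeq promoter, split for each motif (x axis) into genes with (red) and without (grey) its letters in a promoter window; bars are medians and the dashed line is the median of all genes tested. The groups overlap for every motif, with medians of -1.11 with and -0.47 without NRF1 letters and of -0.24 with and -0.62 without YY1 letters.

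The regulators named for these motifs had their own values, from a list of 14 genes for mitochondrial transcription and its nuclear control. MYC stood at 36.7 TPM in shEIF3F and 228 TPM in shCON (log2 ratio -2.60), NRF1 at 4.84 and 9.14 TPM (-0.80), GABPA at 1.31 and 1.58 TPM (-0.16), and YY1 at 28.5 and 17.8 TPM (0.65). These 4 are given because their motifs were searched. Among the 13 that passed the filter, 3 were at least 2-fold lower (23.1%, against 25.5% of all genes) and none higher. Besides MYC these were ESRRA, a nuclear receptor that works with PGC-1 coactivators, at 31.0 TPM in shEIF3F and 118 TPM in shCON (-1.90), and the coactivator PPARGC1B at 0.88 and 4.98 TPM (-1.67). The coactivator PPRC1 stood at 12.2 TPM in shEIF3F and 21.8 TPM in shCON (-0.79), and GABPB1, the partner of GABPA, at 14.5 and 8.02 TPM (0.78). The list median was -0.52.

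Of 17 divergently placed pairs, 12 members had a higher ratio than the neighbour. The pairs were looked at after the values were seen: a member and a gene on the opposite strand, whose RefSeq starts lie within 1000 bases back to back. At least 2-fold lower were 5 of the 17 members and 8 of the 17 neighbours, against 25.5% of all genes tested, and in 3 pairs both were. The median log2 ratio was -0.48 over these members and -0.99 over the neighbours, against -0.36 for all genes tested. MRPL51 (log2 ratio -1.61) lies opposite the condensin gene NCAPD2, which stood at 5.30 TPM in shEIF3F and 67.6 TPM in shCON (-3.45). MRPL27 (-1.04) lies opposite EME1, a DNA repair endonuclease subunit, at 1.03 and 17.5 TPM (-3.19). In 5 pairs the neighbour alone was at least 2-fold lower, as with MRPL57 (-0.20) opposite SKA3, a kinetochore gene, at 0.46 and 8.45 TPM (-2.69).

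In 2 pairs the member alone was at least 2-fold lower. MRPS12 (log2 ratio -2.05) lies opposite SARS2, the mitochondrial seryl-tRNA synthetase, which stood at 22.4 TPM in shEIF3F and 40.6 TPM in shCON (-0.83). MRPL49 (-1.02) lies opposite FAU, which encodes a cytosolic ribosomal protein, at 3380 and 2962 TPM (0.19). Across the 17 pairs Spearman's rho was 0.240, a description over pairs that share both libraries.

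Mitoribosomal proteins whose symbols are neither MRPL nor MRPS were mostly lower as well. Of the 5 listed, 4 were at least 2-fold lower as deposited and also with the GC trend removed, and 2 after centring, against 25.5%, 13.9% and 16.0% of all genes. AURKAIP1, for mS38, stood at 62.5 TPM in shEIF3F and 357 TPM in shCON (log2 ratio -2.49). DAP3, for the GTP-binding protein mS29, stood at 31.4 TPM in shEIF3F and 98.7 TPM in shCON (-1.62). CHCHD1, for mS37, stood at 27.5 TPM in shEIF3F and 67.3 TPM in shCON (-1.26). These 3 and PTCD3, for mS39, at 11.6 and 25.5 TPM (-1.07), belong to the small subunit. GADD45GIP1, for mL64 of the large subunit, was level at 99.8 TPM in shEIF3F and 98.8 TPM in shCON (0.02).

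A list of mitochondrial translation factors and of other proteins that work with them had a median log2 ratio above 0. Of 15 listed 14 passed the filter, none of them at least 2-fold lower and 1 higher (7.14%, against 8.45% of all genes), with a median of 0.12. The 1 higher was OXA1L, which inserts new proteins into the inner membrane and is not itself a translation factor. It stood at 241 TPM in shEIF3F and 120.0 TPM in shCON (1.00). The largest differences below 0 were C12orf65, a release factor family member, at 16.4 TPM in shEIF3F and 29.04 TPM in shCON (-0.78), and the elongation factor TSFM at 54.3 and 81.2 TPM (-0.57). SLIRP, which binds mitochondrial mRNAs, followed at 232 TPM in shEIF3F and 298 TPM in shCON (-0.36). TACO1, needed to translate MT-CO1, stood at 59.9 TPM in shEIF3F and 44.4 TPM in shCON (0.42), and the release factor MTRF1L at 4.75 and 3.34 TPM (0.41).

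Mitoribosome assembly factors spread widely. Of 26 genes 6 were at least 2-fold lower (23.1%, against 25.5% of all genes) and 1 higher (3.85%, against 8.45%), with a median log2 ratio of -0.61. RPUSD4, a pseudouridine synthase for the large ribosomal RNA, stood at 3.67 TPM in shEIF3F and 33.0 TPM in shCON (-2.87). MALSU1, which docks on uL14m, stood at 32.7 TPM in shEIF3F and 122 TPM in shCON (-1.87), beside -1.71 for MRPL14 itself. MPV17L2 stood at 26.0 TPM in shEIF3F and 90.3 TPM in shCON (-1.76), and the small subunit factor RBFA at 8.12 and 25.2 TPM (-1.52). YBEY, an endoribonuclease, went the other way at 81.6 TPM in shEIF3F and 9.37 TPM in shCON (2.99). The rRNA methyltransferase MRM1 stood at 2.59 TPM in shEIF3F and 6.84 TPM in shCON (-1.13).

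**Figure D4:**
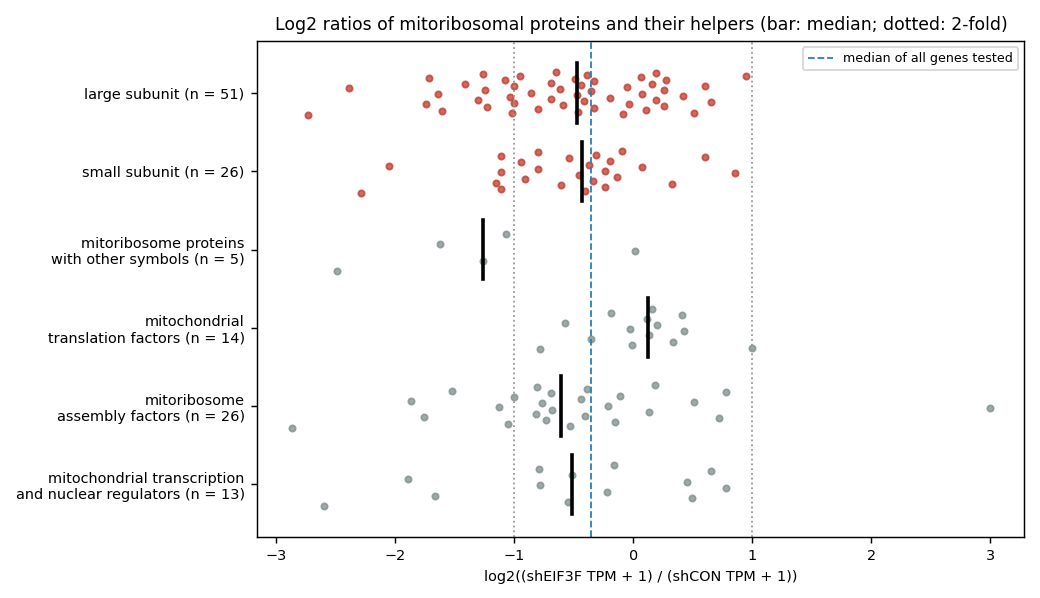
Log2 ratio of shEIF3F to shCON (x axis) for the large and small subunit genes (red) and for the lists of other mitoribosomal proteins and of factors for mitochondrial translation, assembly and transcription (grey), genes that passed the filter; bars are medians, the dashed line is the median of all genes tested and dotted lines mark 2-fold. As deposited, the medians are -0.48 and -0.43 for the subunits, -1.26, 0.12, -0.61 and -0.52 for the lists.

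The ribosomal RNAs of the mitoribosome differed from each other. MT-RNR1, of the small subunit, stood at 719 TPM in shEIF3F and 1210.4 TPM in shCON (log2 ratio -0.75), and MT-RNR2, of the large subunit, at 3446 and 2457 TPM (0.49). The ratio of MT-RNR2 to MT-RNR1 was 4.79 in shEIF3F and 2.03 in shCON. The sources used here do not say how ribosomal RNA was treated in the libraries.

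The genes for cytosolic ribosomal proteins and for the respiratory chain gave different values in the same libraries. Of the 79 cytosolic ribosomal protein genes none was at least 2-fold lower and 26 (32.9%) were higher, against 25.5% lower and 8.45% higher over all genes tested, with a median log2 ratio of 0.72. Their summed TPM was 83.3 times that of the mitochondrial ribosomal protein genes in shEIF3F and 31.1 times in shCON. Of the 78 nuclear genes of respiratory chain complexes and ATP synthase 28 (35.9%) were at least 2-fold lower and 2 (2.56%) higher, against the same shares of all genes, with a median of -0.74. Their summed TPM in shEIF3F was 53.4% of that in shCON, beside 58.0% for the mitochondrial ribosomal protein genes, both as deposited and not rescaled. No test of these differences is possible with 1 library per group.

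Some members share sequence with other genes. In GENCODE release 29, 41 of the 78 share an exon with another gene, 29 of them with a gene on the opposite strand, and the use of strand in counting is not given in the sources used here. Among the 37 without a shared exon 9 (24.3%) were at least 2-fold lower and none higher, with a median log2 ratio of -0.46. Of the 7 genes lower in every form above, MRPL23, MRPL51 and MRPS12 share an exon with a gene on the opposite strand. The table also listed 75 pseudogenes of 34 members, and 70 of them were at 0 in both libraries. The others summed to 19.8 TPM in shEIF3F and 21.3 TPM in shCON. MRPL45P2 stood at 13.6 TPM in shEIF3F and 8.32 TPM in shCON, MRPS31P4 at 5.09 and 4.76 TPM, and MRPS17P1 at 0.82 and 7.78 TPM. Reads of MRPL45, MRPS31 and MRPS17 may have been split with them, and the values of these members are uncertain.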

How the data were processed

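RNA-seq of 1 shEIF3F and 1 shCON library was deposited as gene TPM, which the authors calculated and gave to 2 decimals. Tools were CASAVA and HISAT2, with hg19 as build, per the submitters' processing notes. Libraries were made from Trizol-extracted total RNA with an Illumina TruSeq kit, per the labels' protocols. The gene counter, the annotation and strand settings: not given in the sources used here. TPM keeps no read number, so no counting interval was computed. Columns were matched to groups by the sample descriptions.

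The 58884 entries were summed by symbol. Left out were 27 entries with symbols turned into dates and 5531 small RNA symbols. Log2 ratios used a pseudocount of 1 TPM and a minimum mean of 1 TPM. GC content, length and shared exons came from GENCODE release 29, and promoters from RefSeq. Members get both values where at least 2-fold changed, among the 10 highest or lowest ratios or the 5 most abundant, near the limit, or MRPS18 paralogues; lists give up to 6 genes of largest ratio. Members and lists were chosen with earlier results of these data known. Python 3.11.15, NumPy 2.4.6, pandas 2.3.3, SciPy 1.17.1 and matplotlib 3.10.9 were used, and the calculations were tested on simulated data. Alternatives tried were other pseudocounts, filters, centring, rescaling without the 100 most abundant genes, GC or length trend removal in 20 bins, the most abundant entry per symbol, and members without shared exons.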

Additional observations from a re-analysis of the deposited data

How the results depend on the processing

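As deposited 21 of the 78 genes were at least 2-fold lower and 0 higher, with median log2 ratios of -0.47 (all), -0.48 (large subunit), -0.43 (small subunit), -0.56 (bacterial homologue) and -0.36 (mitochondria-specific). In the same order, centring gave 9 lower, 3 higher and medians of -0.11, -0.12, -0.075, -0.205 and -0.0013. Rescaling gave 8 lower, 5 higher and medians of -0.044, -0.049, -0.0061, -0.148 and 0.071. GC trend removal gave 7 lower, 1 higher and medians of -0.145, -0.108, -0.145, -0.292 and -0.0039. Length trend removal gave 9 lower, 3 higher and medians of -0.085, -0.0795, -0.097, -0.186 and 0.017. Members without a shared exon gave 9 lower, from 37 genes, and a mitochondria-specific median of -0.199. A pseudocount of 0.1 TPM gave 23 lower and 1 higher, MRPL1. A pseudocount of 5 TPM left 16 lower, and 21 were lower with no filter, with a filter of 5 TPM and with the most abundant entry per symbol. Centring, rescaling and GC removal took 12, 13 and 14 of the 21 genes below the 2-fold limit, and the cause of these moves was not tested.

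No paired analysis was possible because each group had 1 library. Leaving out a library was not run for the same reason. The depth is unknown, so the counting error of low values, such as MRPL50 at 3.38 TPM in shEIF3F and 3.50 TPM in shCON, cannot be given.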
